A study of Mus musculus with 19 samples.

Results

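The genes described are the chemokines, the interleukins and the receptors of both, as measured in cultured islets of B6 and BLKS mice. Members were the non-control probes whose gene name on the array begins with Ccl, Cxcl, Ccr, Cxcr or Il followed by a digit, which gave 171 of 41174 probes, for 127 gene names. A member was kept where its Cy5 signal was well above background in at least 4 mice. This left 112 probes (65.5%) for 91 gene names, and 59 probes dropped out, while over the whole array 29329 probes (71.2%) were kept.

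The islets came from 12 week old male mice of 2 inbred strains, C57BL6/J (B6, given as C57BL/6 in the sample labels) and C57BLKS/J (BLKS), and the labels name no further allele in either. BLKS is related to B6 and is known for its susceptibility to diabetes when it carries a leptin receptor mutation. The study describes the mice used here as non-obese. All islets were kept for 48 h in 11 mM glucose and then for 24 h in 5 mM (low) or 20 mM (high) glucose, with 5 B6 and 5 BLKS mice in low glucose and 5 B6 and 4 BLKS mice in high glucose. RNA of each mouse was labelled with Cy3 and with Cy5 and hybridised to 20 Agilent arrays of 2 colours, where 9 pairs of arrays each held a B6 and a BLKS mouse of the same number and glucose concentration, while a further pair, scanned later, held B6 low 1 and B6 high 5. Values below are log2 signals, averaged over the dyes of a mouse and listed in the order of the mouse numbers. A probe was called where its adjusted p from limma over all 29329 probes was under 0.05.

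Chemokines are small secreted proteins that guide leucocytes along gradients and act through receptors coupled to G proteins, and the CC and CXC families are named after the spacing of their first cysteines. Interleukins carry signals between immune cells and their neighbours. Most of their receptors act through Janus kinases and STAT factors, whereas the receptors of the IL-1 and IL-17 families act through adaptors that lead to NF-kB. In islets, IL-1 is known to disturb the function of beta cells, which carry the IL-1 receptor themselves, and the islet also holds resident macrophages, endothelial cells and stellate cells that make chemokines.

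Probes were kept in every role. Interleukin receptors were kept at 43 of 61 probes, interleukins with their binding proteins at 31 of 49, CC chemokines at 18 of 26, CXC chemokines at 10 of 16, CC chemokine receptors at 7 of 12 and CXC chemokine receptors at 3 of 7. The IL-6 family, which signals through gp130, was kept at 9 of 9 probes, and the IL-17 family at 13 of 17. Among the names of which no probe was kept are Ccr1, Ccr2 and Ccr7, receptors of monocytes, T cells and dendritic cells, Cxcr6, the receptor of Cxcl16, and the interferon-induced chemokines Cxcl9 and Cxcl11. No probe was kept for the T cell cytokines Il17, Il21 and Il22 either. Of the 112 kept probes, 74 were well above background in all 19 mice.

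Kept probes lay close to background more often than the array as a whole. Their median log2 signal was 6.41, against 6.96 over all probes tested, and 62 of them (55.4%) were under 6.5, against 34.6% of all probes. The negative control spots had medians from 5.67 to 5.87 in Cy5. As no background was subtracted, fold changes of dim probes are understated. Only 14 kept probes were above 8, and brightness depends on how well a probe binds, so that it does not rank the amounts of different transcripts.

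**Figure D1:**
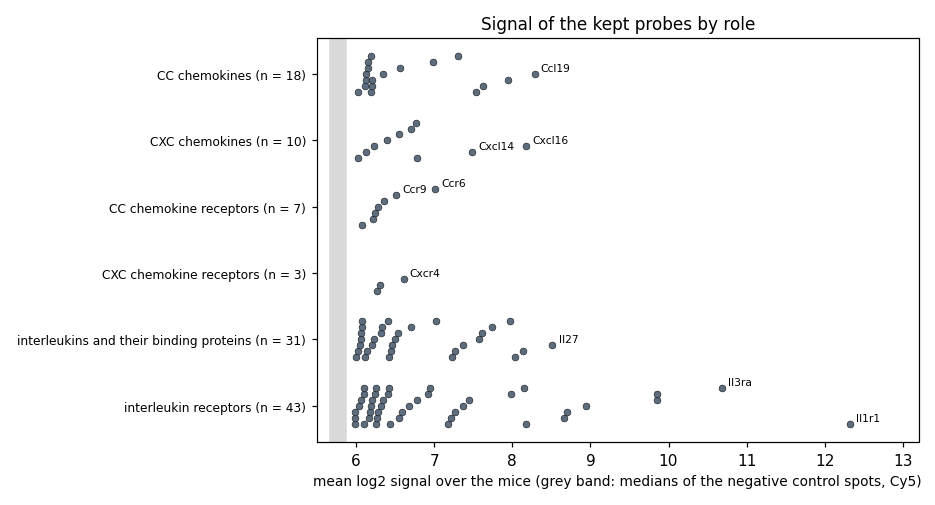
Mean log2 signal over the mice (horizontal axis) of each kept probe, 1 point per probe, by role, with the range of the negative control medians in Cy5 as a grey band. Most chemokine and chemokine receptor probes lie under 7, and the probes of Il1r1 (12.32) and Il3ra (10.68) are the brightest.

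The brightest probes were those of interleukin receptors. Il1r1, the signalling receptor of IL-1, had a mean of 12.32, Il3ra, the alpha chain of the IL-3 receptor, 10.68, and Il17rc, a subunit of the IL-17 receptor, 9.86. Both probes of Il11ra1, the alpha chain of the IL-11 receptor, were bright as well, with means of 9.85 and 8.69. Il27, a subunit of the cytokine IL-27, was at 8.51 and led the interleukins. Ccl19 (8.29), a chemokine of lymphoid tissue, and a probe of Cxcl16 (8.18) led the chemokines, while the brightest chemokine receptor, Ccr6, had a mean of 7.01.

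In low glucose, 2 libraries went against their strain labels. The strain of the low-glucose mice was read from 106 probes chosen for their strain difference in high glucose, as a position where 0 is the average B6 mouse and 1 the average BLKS mouse. The high-glucose labels were taken as given for this. The library labelled B6 low 4 lay at 1.011 and that labelled BLKS low 5 at -0.046, whereas the other B6 low mice lay between -0.063 and 0.02 and the other BLKS low mice between 0.927 and 1.007. Both libraries were analysed under their labels, and results that rest on them are given with and without both. All 21 islet endocrine genes on the array were kept, with a summed signal between 565000 and 680000 units in the groups. This was the largest sum of the marker lists, of which duct genes came next with up to 54100 units. Acinar genes (12 of 12), endothelial genes (11 of 11) and fibroblast and stellate genes (11 of 11) were kept in full as well. Being kept therefore does not single out islet tissue.

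Fewer of the chemokine and interleukin probes were called than of the array as a whole in each comparison that had calls. For the glucose response averaged over strains 12 of 112 were called (10.7%), against 22.3% of all probes. In B6 islets glucose changed 7 (6.25%, against 9.49%), of which 3 rose and 4 fell, against 5.43% and 4.06% of all probes. In BLKS islets 2 rose (1.79%, against 6.53%) and 0 fell (against 5.06%), where 11.6% of all probes were called. The strain difference in high glucose was called for 7 members (6.25%, against 11.1%). In low glucose limma called no member for strain and 0% of all probes, with 14 members and 4712 probes in all at an unadjusted p under 0.05. Without the libraries labelled B6 low 4 and BLKS low 5, 15 members (13.4%, against 15.6% of all probes) were called in low glucose and 11 (9.82%, against 15.3%) in high glucose, while the glucose counts stayed at 12, 7 and 2 (against 21.9%, 12.2% and 9.86% of all probes). By direction, 6 members were then higher and 9 lower in BLKS in low glucose (against 7.06% and 8.58%), and 3 and 8 in high glucose (against 6.93% and 8.33%). With glucose, 5 rose and 7 fell averaged over strains (against 10.7% and 11.1%), 3 and 4 in B6 (against 6.6% and 5.58%) and 2 and 0 in BLKS (against 5.57% and 4.29%). These comparisons share groups of mice and are not independent of each other.

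The array pair as a block moved these counts as well. With the pair as a fixed block, 20 members were called for strain in high glucose (against 20.8% of all probes) and 6 in low glucose (against 8.41%). As a random block it gave 22 and 12 (against 25.2% and 16.1%). In high glucose both counts include Cxcl1 and Il12rb1. Each passed the filter only with high-glucose mice of the strain in which it was higher, so their calls are no support for a strain difference. For the glucose response the random block gave 7 averaged over strains, 8 in B6 and 5 in BLKS (against 13%, 8.31% and 12% of all probes). For strain, the shares of all probes rose with the counts of the members, from 11.1% in high and 0% in low glucose. For the glucose response averaged over strains both fell. In B6 the members went from 7 to 8 while the share of all probes fell from 9.49%. In BLKS the members went from 2 to 5 while that share hardly moved from 11.6%. All 7 members called for strain in high glucose without the block were among the 22, and 6 of them among the 20.

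**Figure D2:**
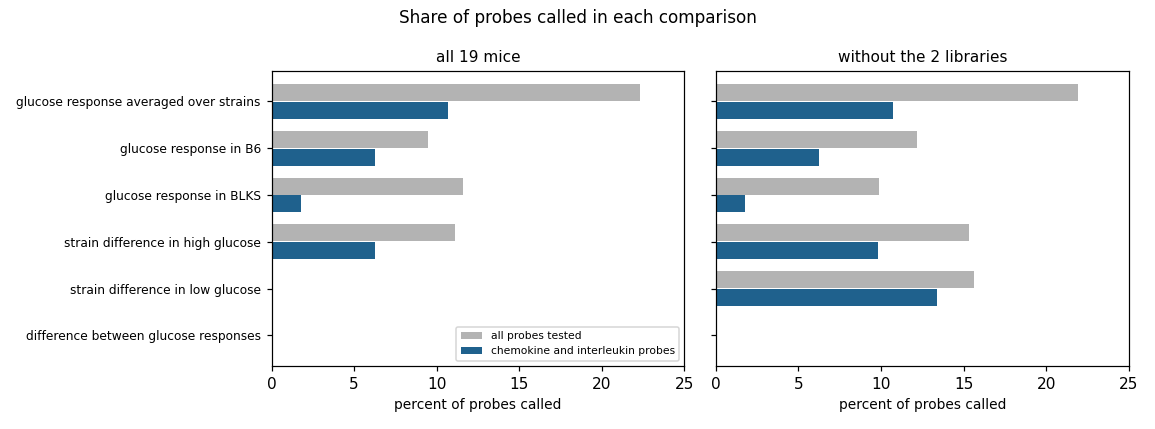
Percent of probes called (horizontal axis) in each of 6 comparisons, for all probes tested (grey) and for the chemokine and interleukin probes (blue), with all 19 mice on the left and without the libraries labelled B6 low 4 and BLKS low 5 on the right. The blue bars are shorter than the grey ones wherever both have calls, and bars appear for strain in low glucose only on the right, at 15.6% and 13.4%.

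The question of which members differ between the strains was answered first in high glucose, where the strain labels were taken as given. Of 112 probes, 5 were lower in BLKS than in B6 islets, namely probes of the chemokines Cxcl16, Ccl5 (2 probes) and Ccl4 and of the cytokine Il17d, and 2 were higher, both of the receptor Il11ra1. Over all probes 6.12% were called lower and 4.99% higher. The median difference of the members was 0.01, as over all probes. At each of the 7 probes the high-glucose mice of the strains did not overlap, which is no further support, as the call rests on the same mice. Uncalled probes of Il1rn, Il17re and Cxcr4 did not overlap either. The share of all probes without overlap is not given, so the separation is a description of these mice and no result about the members. In islets, as in other mixed tissue, fewer cells of a type and less RNA per cell cannot be told apart.

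Cxcl16, a chemokine made as a membrane protein whose receptor is Cxcr6, had the largest called strain difference. At probe A_51_P108020 the 5 B6 mice in high glucose were at 7.09, 6.92, 7.09, 6.82 and 7.05 and the 4 BLKS mice at 6.42, 6.30, 6.39 and 6.23. In low glucose the B6 mice were at 7.03, 6.98, 7.06, 6.27 and 7.16 and the BLKS mice at 6.38, 6.31, 6.42, 6.28 and 7.12. The 6.27 and the 7.12 belong to the 2 libraries that go against their labels, and each lay among the mice of the other strain. The high-glucose mice differed by -0.66 log2 units, or 1.58-fold (standard error 0.16, adjusted p = 0.0152), and each mouse could be left out without loss of the call.

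In low glucose the Cxcl16 difference at this probe was -0.40 (adjusted p = 0.21) with all libraries, and called with the pair of arrays as fixed block (-0.40, adjusted p = 0.0477) and as a random block (adjusted p = 0.0175). Without both libraries it was -0.71 (adjusted p = 2.92e-07). The other Cxcl16 probes did not show it. In high glucose A_52_P99888 gave -0.02 (adjusted p = 0.959) and A_51_P374203 gave 0.02 (adjusted p = 0.916), so the 3 probes of this gene disagree on strain.

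Ccl5, which attracts T cells and monocytes, was lower in BLKS at both of its probes. Probe A_51_P485312 was at 7.86, 7.44, 7.62, 7.40 and 7.59 in the B6 high mice and at 6.86, 7.09, 7.08 and 7.06 in the BLKS high mice, a difference of -0.56 (standard error 0.15, adjusted p = 0.0211), 1.47-fold. Probe A_52_P638459 was at 8.59, 8.05, 8.29, 8.02 and 8.02 in B6 and at 7.72, 7.58, 7.80 and 7.70 in BLKS, a difference of -0.50 (standard error 0.16, adjusted p = 0.0491), 1.41-fold. Within the array pairs the mouse labelled BLKS was the lower one at both probes in 4 of 4 high-glucose pairs and 5 of 5 low-glucose pairs. Low-glucose pairs 4 and 5 each hold a library that goes against its strain label, so they do not count as strain comparisons. The call of A_51_P485312 was lost without B6 high 1 or BLKS high 1, with adjusted p up to 0.0652. That of A_52_P638459 held in only 3 of 19 fits with a mouse left out. In low glucose the differences were -0.27 (adjusted p = 0.36) and -0.21 (adjusted p = 0.572), and without both libraries -0.43 (adjusted p = 0.0421) and -0.40 (adjusted p = 0.0542).

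Ccl4, a chemokine of macrophages, was dimmer. Its probe A_51_P509573 was at 6.5, 6.26, 6.44, 6.31 and 6.97 in the B6 high mice and at 6.13, 6.22, 6.11 and 6.04 in the BLKS high mice, where only 2 of 4 were well above background. The difference was 1.29-fold, or -0.37 log2 units (standard error 0.11, adjusted p = 0.0305), and the gap between the groups was narrow, from 6.22 to 6.26. With the pair of arrays as fixed block the Ccl4 call was lost (-0.25, adjusted p = 0.0639), and it was also lost without B6 high 1, BLKS high 1, BLKS high 3 or BLKS high 4. In low glucose Ccl4 gave -0.15 (adjusted p = 0.539).

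Il17d, a member of the IL-17 cytokine family, was at 8.27, 8.1, 8.14, 8.11 and 8.13 in the B6 high mice and at 7.94, 7.80, 7.68 and 7.77 in the BLKS high mice at its probe A_51_P154513. The difference was 1.28-fold, or -0.35 log2 units (standard error 0.11, adjusted p = 0.036), and was lost in 8 of 19 fits with a mouse left out and with Cy5 values alone (-0.21, adjusted p = 0.295). In low glucose it was -0.26 (adjusted p = 0.205), and called with the pair as a random block (adjusted p = 0.0193). Without both libraries it was -0.43 (adjusted p = 0.000167), and all 4 remaining BLKS low mice lay below the 4 remaining B6 low mice.

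Il11ra1, which binds IL-11 and signals together with gp130, was the gene called higher in BLKS islets without the block. Probe A_51_P353947 was at 8.35, 8.49, 8.43, 8.32 and 8.56 in the B6 high mice and at 8.88, 8.84, 8.88 and 8.85 in the BLKS high mice. This is a difference of 0.43 (standard error 0.06, adjusted p = 0.000955), 1.35-fold. Probe A_51_P353946 was at 9.52, 9.49, 9.72, 9.39 and 9.48 in B6 and at 10.09, 9.78, 10.27 and 10.08 in BLKS, a difference of 0.53 (standard error 0.10, adjusted p = 0.0029), 1.45-fold. Both calls held without each mouse in turn, and the mouse labelled BLKS was the higher one in all 9 array pairs at both probes. Low-glucose pairs 4 and 5 each hold a library that goes against its strain label, so they do not count as strain comparisons. For each of the 2 probes, the exact permutation test of the high-glucose mice gave p = 0.00794 (2-sided), the smallest that 5 mice against 4 allow. This p restates that the groups did not overlap, and is not adjusted over the probes. As the probes were chosen by their call in the same mice, it is no further support.

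In low glucose the Il11ra1 differences were 0.24 (adjusted p = 0.124) at A_51_P353947 and 0.30 (adjusted p = 0.147) at A_51_P353946. Both were called with the pair of arrays as fixed block (adjusted p = 0.0179 and 0.0299) and without both libraries, at 0.33 (adjusted p = 0.000174) and 0.38 (adjusted p = 0.00808). The mouse genome holds a near-identical copy, Il11ra2, so it is uncertain which of the genes these probes measure. At A_51_P353947 the signal also fell with glucose in B6 islets, by 0.21 (adjusted p = 0.0369, without both libraries by 0.16, adjusted p = 0.0443), and gave -0.02 in BLKS islets (adjusted p = 0.918). The B6 call was lost in 6 of 19 fits that leave out 1 mouse.

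Il1rn encodes the antagonist that blocks the IL-1 receptor. It was well above background in 18 mice at A_52_P431159, and in high glucose was at 6.28, 6.25, 6.26, 6.21 and 6.56 in B6 and at 6.59, 6.71, 6.72 and 6.79 in BLKS. The groups did not overlap, and the difference of 0.39 (standard error 0.15) was not called with all libraries (adjusted p = 0.111). It was called with the pair of arrays as fixed block (0.45, adjusted p = 0.0352) or a random block (0.42, adjusted p = 0.0107), and without both libraries (adjusted p = 0.000852). In low glucose the library labelled B6 low 4 was at 6.85 and the remaining B6 mice between 5.98 and 6.30, and the library labelled BLKS low 5 was at 6.11 and the remaining BLKS mice between 6.67 and 6.80. The low-glucose difference of 0.36 (adjusted p = 0.224) became 0.63 without both (adjusted p = 1.06e-05).

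Il17re, a receptor chain for IL-17C, is named after its values were seen. Its probe A_51_P119771 was at 8.23, 8.17, 8.20, 8.12 and 8.20 in the B6 high mice and at 7.82, 7.49, 7.81 and 7.80 in the BLKS high mice, a difference of -0.45 (adjusted p = 0.0617) that was called with the pair of arrays as fixed block (adjusted p = 0.0154). Without both libraries Il17re differed by -0.45 in high glucose (adjusted p = 0.000328) and by -0.59 in low glucose (adjusted p = 3.49e-05). A probe of Cxcr4, the receptor of Cxcl12, also did not overlap between the strains in high glucose (A_52_P585124, -0.25, adjusted p = 0.0685, with a fixed block adjusted p = 0.0297), while the second Cxcr4 probe gave -0.06 (adjusted p = 0.532).

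With the block, further members were called higher in BLKS in high glucose. Il3ra, the alpha chain of the IL-3 receptor, was at 10.53, 10.45, 10.43, 10.58 and 10.61 in the B6 high mice and at 10.70, 10.56, 10.65 and 10.64 in the BLKS high mice, which overlap. Without the block its difference was 0.12 (adjusted p = 0.345), and with the fixed block 0.14 in high glucose (adjusted p = 0.0143) and 0.17 in low glucose (adjusted p = 0.0208). Il10rb gave 0.15 without the block (adjusted p = 0.16) and 0.17 with it (adjusted p = 0.035). At Il3ra and at Il10rb the mouse labelled BLKS was the higher one in 4 of 4 high-glucose and 5 of 5 low-glucose pairs. Of these, low-glucose pairs 4 and 5 each hold a library that goes against its strain label. Il12rb1, Il28ra, Il2ra and Il4i1, named after their values were seen, were also higher with the fixed block, by 0.08 to 0.18. Of these, Il12rb1 was well above background in only 4 mice, 2 of them BLKS high mice. It passed the filter only with those mice, so its call is no support for a strain difference.

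**Figure D3:**
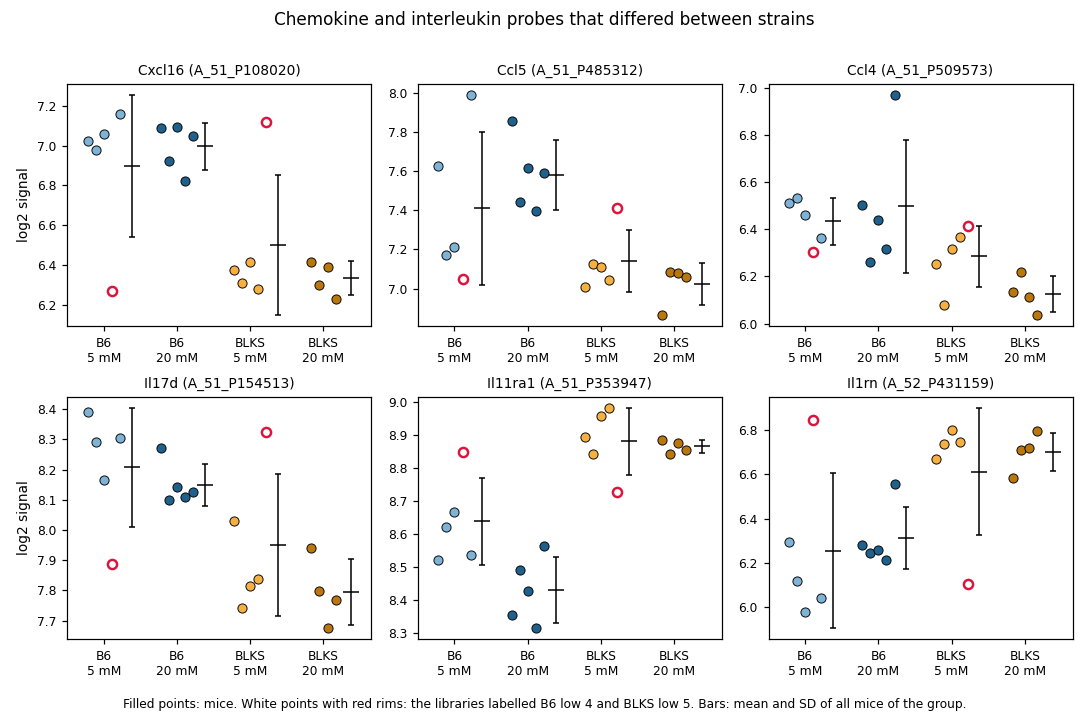
Log2 signal (vertical axes, a scale of its own per panel) of each mouse for 6 probes of members that differed between strains, with the mean and SD of each group of 5, 5, 5 and 4 mice, and the libraries labelled B6 low 4 and BLKS low 5 as white points with red rims. At Cxcl16, Il17d and Il1rn the red-rimmed points of the low-glucose groups lie with the other strain, and the high-glucose mice of the strains do not overlap in any panel.

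By role, the 18 CC chemokine probes had a median strain difference in high glucose of -0.09, with 3 called lower and 0 higher (against 6.12% and 4.99% of all probes), and 4 of 18 above 0. The 10 CXC chemokine probes had a median of -0.06 (1 lower, 0 higher), the 43 interleukin receptor probes 0.02 (0 lower, 2 higher) and the 31 probes of interleukins and their binding proteins 0.01 (1 lower, 0 higher). None of the 10 kept chemokine receptor probes was called, with medians of 0.02 for the 7 CC and -0.06 for the 3 CXC receptors. Over all probes the median was 0.01.

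Marker genes of other cells in the islet were compared between strains in high glucose in the same way, where 6.12% of all probes were lower and 4.99% higher in BLKS. Of the 21 macrophage probes 2 were called lower in BLKS and 0 higher, 11 lay above 0 and the median was 0.004, with a summed signal of 3620 to 4380 units in BLKS and 4200 to 5590 units in B6. Cd163, Itgam and Mrc1, which define macrophage types, were not kept, and Msr2 gave 0.61 (adjusted p = 0.0511), called higher without both libraries (adjusted p = 0.000199). Of 11 T and NK cell probes 1 was lower, that of Cd5 (-0.43, adjusted p = 0.0104), and the sums overlapped (1120 to 1190 against 1140 to 1210 units), with Cd28 and Gzma not kept. Endothelial probes were lower at 6 of 16 (sums of 2160 to 2530 against 2760 to 3220 units) and fibroblast and stellate probes at 9 of 18 (10400 to 12300 against 12400 to 16900 units). Duct probes were higher in BLKS at 3 of 10, with a median difference of 0.10 and sums of 28400 to 54100 against 22300 to 24700 units. The duct sum includes Spp1, which the study reports as higher in BLKS islets and raised by glucose. It therefore need not follow the duct markers as a set. B cell probes were higher at 1 of 8 (668 to 792 against 623 to 685 units) and acinar probes at 2 of 14 (2440 to 3090 against 2290 to 2690 units). Only 4 of 8 neutrophil genes were kept, with 1 called higher in BLKS, S100a9 (1.73, adjusted p = 0.00465), and sums of 443 to 765 against 264 to 468 units. The part of these cells in the strain differences of Cxcl16, Ccl5, Ccl4, Il17d and Il11ra1 was not tested.

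Glucose raised 6 member probes and lowered 6, averaged over strains, where 10.9% of all probes rose and 11.4% fell. The probes that rose belong to receptors of the IL-13, IL-10 and IL-6 families and to 3 genes of the IL-1 family. Of these, Il1f6 passed the filter only with high-glucose mice, so its call is no support for a rise. The probes that fell belong to the receptors Il1r1, Il3ra and Il21r, the chemokines Cxcl12 and Cxcl16 and the cytokine Il27. The changes were small, from 0.10 to 0.46 on the log2 scale for rising probes. The members' median change was 0.01 and that of all probes -0.004, and without scaling between arrays 4 members rose and 9 fell, where 1410 of all probes rose and 3797 fell.

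Il13ra1, a receptor chain shared by IL-13 and IL-4, was called as rising with glucose in both strains. At A_51_P365189 the B6 mice were at 7.26, 7.07, 7.09, 7.27 and 7.08 in low and at 7.76, 7.59, 7.56, 7.39 and 7.83 in high glucose. The BLKS mice were at 7.30, 7.18, 7.39, 7.57 and 7.11 in low and at 7.92, 7.88, 7.52 and 7.73 in high glucose. The B6 groups did not overlap, while in BLKS the low-glucose mouse at 7.57 was above the high-glucose mouse at 7.52. In B6, Il13ra1 rose 1.39-fold, by 0.48 log2 units (standard error 0.09, adjusted p = 0.00299). The rise in BLKS was 0.45 log2 units, 1.37-fold (standard error 0.10, adjusted p = 0.00545). The calls held without each mouse in turn and without both libraries, at 0.51 and 0.41, but the B6 call was lost in the authors' log2 table (0.37, adjusted p = 0.0579). A second, dimmer probe of Il13ra1, A_52_P552194, gave 0.01 averaged over strains (adjusted p = 0.933), so the probes of this gene disagree.

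Il10rb, a subunit shared by the receptors of IL-10, IL-22 and the lambda interferons, was at 8.78, 8.78, 8.70, 8.87 and 8.69 in B6 low mice and at 9.15, 8.94, 8.98, 8.88 and 9.11 in B6 high mice. The BLKS mice were at 8.92, 8.81, 9.0, 8.99 and 8.75 in low and at 9.23, 9.24, 9.05 and 9.11 in high glucose. Neither strain had an overlap between its glucose groups. In B6, Il10rb rose 1.19-fold, by 0.25 log2 units (standard error 0.06, adjusted p = 0.0141), and in BLKS 1.20-fold, by 0.27 (standard error 0.06, adjusted p = 0.011). Without both libraries the rises were 0.27 (adjusted p = 0.00513) and 0.23 (adjusted p = 0.0258). Without scaling between arrays the rises were 0.19 (adjusted p = 0.212) and 0.20 (adjusted p = 0.179), and with Cy5 alone adjusted p was 0.0636 and 0.0749. Il13ra1 and Il10rb were the only members called in BLKS islets.

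Il1b, the best known IL-1 cytokine and a product of macrophages, rose in B6 islets. Its probe A_51_P212782 was at 7.09, 6.95, 6.74, 7.12 and 6.98 in the B6 low mice and at 7.65, 7.22, 7.35, 7.27 and 7.78 in the B6 high mice, with no overlap. The rise was 1.39-fold, or 0.48 log2 units (standard error 0.11, adjusted p = 0.00777), and 0.51 without both libraries (adjusted p = 0.00416). In BLKS the values were 7.17, 7.06, 7.14, 7.47 and 6.92 in low and 7.36, 7.42, 7.26 and 7.28 in high glucose, a difference of 0.18 (adjusted p = 0.357). The difference between the responses was -0.30 (standard error 0.16) and was not called (adjusted p = 1), so the responses are not shown to differ. The 21 macrophage probes had a median B6 response of -0.11, with 1 called lower and 0 higher (against 4.06% and 5.43% of all probes). The part of macrophages in the Il1b change was not tested.

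Other IL-1 family members changed by less. The decoy receptor Il1r2 rose by 0.15 averaged over strains (adjusted p = 0.0148), lost with the pair of arrays as random block (adjusted p = 0.0761). Il1f6, an IL-36 cytokine, gave 0.12 (adjusted p = 0.0444), but was well above background in only 4 mice and in 0 of 5 BLKS low mice, and its call was lost without both libraries (adjusted p = 0.0646), in 12 of 19 fits without 1 mouse and with the block (adjusted p = 0.115). The probe of Il1f6 passed the filter only with high-glucose mice, a direction that the filter favoured. Of the BLKS high mice only 2 were well above background at Il1f6, so no lower limit of its change in BLKS is given.

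Il1r1 fell in B6 islets. At A_51_P271503 the B6 mice were at 12.52, 12.41, 12.75, 12.48 and 12.46 in low and at 12.21, 12.37, 12.10, 12.30 and 12.25 in high glucose, so the groups did not overlap. The BLKS mice were at 12.47, 12.19, 12.21, 12.16 and 12.34 in low and at 12.22, 12.26, 12.04 and 12.32 in high glucose and overlapped. The change was -0.28 in B6 (standard error 0.07, adjusted p = 0.0193), 1.21-fold, and -0.06 in BLKS (adjusted p = 0.665), with a difference between the responses of 0.21 (standard error 0.11, adjusted p = 1). The B6 call of Il1r1 was lost without B6 low 3 or B6 high 3 (adjusted p up to 0.0601) and without scaling (adjusted p = 0.108). The fall averaged over strains, by 0.17 (adjusted p = 0.0255), was lost with the block (adjusted p = 0.128). In low glucose Il1r1 gave a strain difference of -0.25 (adjusted p = 0.138), which was called with the pair as a fixed block (adjusted p = 0.038) and without both libraries (-0.28, adjusted p = 0.0293).

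Cxcl12, which holds Cxcr4-bearing cells in tissues, was lower in high glucose. Its probe A_51_P172502 was at 7.13, 6.63, 6.78, 6.51 and 6.72 in the B6 low mice and at 6.48, 6.47, 6.41, 6.54 and 6.67 in the B6 high mice. In BLKS it was at 6.60, 6.47, 6.78, 6.41 and 6.52 in low and at 6.36, 6.34, 6.42 and 6.26 in high glucose, and the glucose groups touched or overlapped in both strains. Averaged over strains Cxcl12 fell by 0.23 (standard error 0.07, adjusted p = 0.0187), in each fit that leaves out 1 mouse, but not with the pair of arrays as random block (adjusted p = 0.114). Endothelial probes fell at 6 of 16 and macrophage probes at 6 of 21 in the same comparison, against 11.4% of all probes, and their part in the Cxcl12 change was not tested.

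Il3ra fell by 0.20 averaged over strains (adjusted p = 0.00675), Il27 by 0.16 (adjusted p = 0.00422) and Il21r, the receptor of IL-21, by 0.12 (adjusted p = 0.0024), each called without every mouse in turn and with the block. In B6 alone Il21r fell by 0.13 (adjusted p = 0.0223), a call lost in 5 of 19 fits without 1 mouse. With the block, Il27 was called in B6 (-0.16, adjusted p = 0.0323), and Il21r, Il27 and Il3ra were called in BLKS, at -0.10, -0.15 and -0.20. Probe A_51_P374203 of Cxcl16 fell by 0.15 (adjusted p = 0.0112), and in B6 by 0.17 (adjusted p = 0.049, without both libraries 0.0917, called in 5 of 19 fits without 1 mouse). Il6st, which is gp130, rose by 0.10 (adjusted p = 0.027), lost without BLKS low 1, BLKS high 2 or BLKS high 3 and with the block (adjusted p = 0.174).

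**Figure D4:**
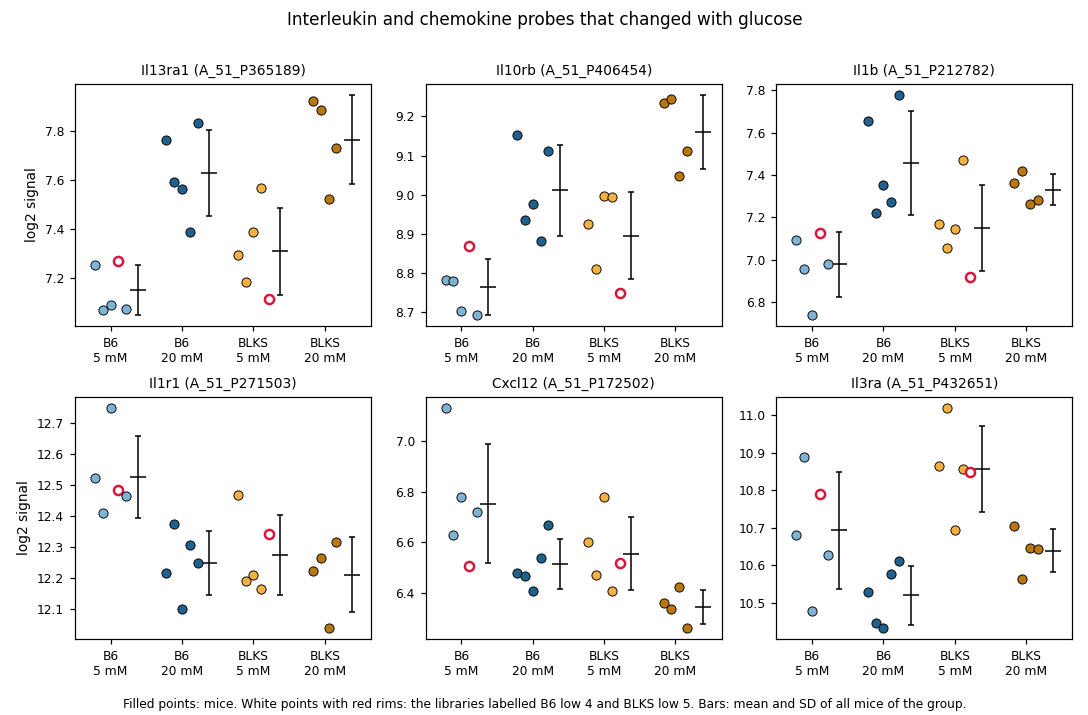
Log2 signal (vertical axes, a scale of its own per panel) of each mouse for 6 probes of members that changed with glucose, with the mean and SD of each group and the libraries labelled B6 low 4 and BLKS low 5 as white points with red rims. Il13ra1 and Il10rb are higher at 20 mM in both strains, by 0.45 to 0.48 and by 0.25 to 0.27 on the log2 scale, and Il3ra is lower at 20 mM.

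Chemokines known to be induced in inflammation through NF-kB or interferon signals varied widely between mice of a group. Ccl2, which attracts monocytes, was at 7.85, 7.37, 6.94, 7.08 and 6.86 in B6 low mice and at 8.33, 7.29, 7.58, 7.0 and 9.90 in B6 high mice (A_51_P286737). The BLKS mice were at 6.96, 7.01, 8.62, 8.01 and 6.73 in low and at 7.37, 7.84, 7.08 and 7.41 in high glucose. B6 high 5, one of the mice on the arrays scanned later, stood far above the rest. The B6 response of Ccl2 was 0.80 (standard error 0.44, adjusted p = 0.323), and 0.35 without the later-scanned arrays (adjusted p = 0.614).

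Cxcl1, which attracts neutrophils, was well above background in all 5 B6 high mice, at 7.04, 6.33, 6.40, 6.13 and 8.1, and in 2 of the other 14. The B6 low mice were between 5.93 and 6.19, the BLKS low mice between 5.93 and 6.05 and the BLKS high mice between 5.98 and 6.30. Probe A_51_P363187 thus passed the filter through the B6 high mice. Its calls for strain in high glucose with the array pair as a block are therefore no support, and its values are given as a description. In the 4 high-glucose array pairs the BLKS mouse was the lower one each time, a direction that the filter favoured. It is no support for a strain difference. Cxcl2, a close relative, stood out only in B6 high 5 (6.65, with the other mice between 6.02 and 6.17).

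Cxcl10, an interferon-induced ligand of Cxcr3, was at 7.57, 6.45, 7.33, 6.18 and 6.80 in the B6 high mice and at 6.01, 6.40, 6.19 and 6.14 in the BLKS high mice (A_51_P432641). Its strain difference in high glucose was -0.68 (standard error 0.25, adjusted p = 0.0865), called with the pair as a random block (-0.69, adjusted p = 0.0316) and not as a fixed block (adjusted p = 0.14). The B6 response was 0.52 (adjusted p = 0.205), with a single B6 low mouse at 7.12 and the others from 6.05 to 6.32. Il6, a cytokine of the acute phase, gave a B6 response of 0.30 (adjusted p = 0.121), and B6 high 5 was again the highest mouse at 6.90. In Il1b, too, this mouse was the highest of all (7.78), and without the later-scanned arrays the B6 rise of Il1b was 0.39 (adjusted p = 0.026).

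Promoter sequences of this set are shown because they are known as targets of NF-kB and because the same mouse was high at several of these genes. They were taken from RefSeq (assembly GRCm38.p6), run 5′ to 3′ on the strand of the gene from 250 bases before to 50 bases after its start, and were at hand for 72 of the 91 kept gene names. Capitals mark matches to the kappa B consensus, searched on both strands, or to the interferon element GAAANNGAAA, also on both strands. The promoter of Il1b, the gene called in B6, held no match to either motif.
Cxcl1, chr5:90890995-90891294, plus strand: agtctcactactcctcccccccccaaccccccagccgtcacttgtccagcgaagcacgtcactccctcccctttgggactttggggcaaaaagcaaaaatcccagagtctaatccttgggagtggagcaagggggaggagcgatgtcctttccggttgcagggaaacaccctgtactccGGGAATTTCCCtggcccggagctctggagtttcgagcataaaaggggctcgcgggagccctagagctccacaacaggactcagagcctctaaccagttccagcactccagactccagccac
Cxcl10, chr5:92348840-92349139, minus strand: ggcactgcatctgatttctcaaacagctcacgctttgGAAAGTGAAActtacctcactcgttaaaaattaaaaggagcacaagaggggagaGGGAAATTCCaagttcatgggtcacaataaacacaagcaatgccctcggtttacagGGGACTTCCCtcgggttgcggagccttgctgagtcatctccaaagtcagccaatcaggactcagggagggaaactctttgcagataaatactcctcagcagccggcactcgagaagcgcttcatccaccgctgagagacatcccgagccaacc
Il6, chr5:30012864-30013163, plus strand: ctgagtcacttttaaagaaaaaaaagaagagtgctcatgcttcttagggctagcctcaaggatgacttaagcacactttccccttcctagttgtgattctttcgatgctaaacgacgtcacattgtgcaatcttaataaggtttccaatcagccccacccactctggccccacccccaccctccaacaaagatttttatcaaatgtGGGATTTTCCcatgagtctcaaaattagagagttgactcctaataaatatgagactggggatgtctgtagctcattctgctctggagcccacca
Il1b, chr2:129371090-129371389, minus strand: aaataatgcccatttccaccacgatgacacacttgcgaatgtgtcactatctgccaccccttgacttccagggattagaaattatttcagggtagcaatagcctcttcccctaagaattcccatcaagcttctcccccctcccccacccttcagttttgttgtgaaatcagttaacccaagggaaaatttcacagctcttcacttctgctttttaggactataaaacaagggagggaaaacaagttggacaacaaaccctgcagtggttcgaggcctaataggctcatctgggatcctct

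In Cxcl1 the match lay 71 to 61 bases before the start and was read on both strands, and Cxcl2 had a match of the same letters 97 to 87 bases before its start. Cxcl10 held 2 kappa B matches, 159 to 150 and 103 to 94 bases before its start, and an interferon element at 213 to 204, and Il6 held a kappa B match at 44 to 35. Over 118 promoters of members, 15 (12.7%) held a kappa B match and 6 (5.08%) an interferon element, against 4.51% and 3.44% of all 32851 promoters. All 15 were promoters of kept genes, Ccl20, Ccl27, Ccl9, Ccr3, Ccr6, Cxcl1, Cxcl10, Cxcl2, Il12rb2, Il16, Il19, Il1r1, Il2ra, Il4ra and Il6. Of the 12 promoters at hand for members called in any comparison, 1 of Il1r1 held a kappa B match. No promoter was at hand for the called genes Ccl4, Ccl5, Cxcl16, Il10rb, Il1f6 and Il27, so these were not searched. A match is a description of letters and no evidence of a site in use.

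**Figure D5:**
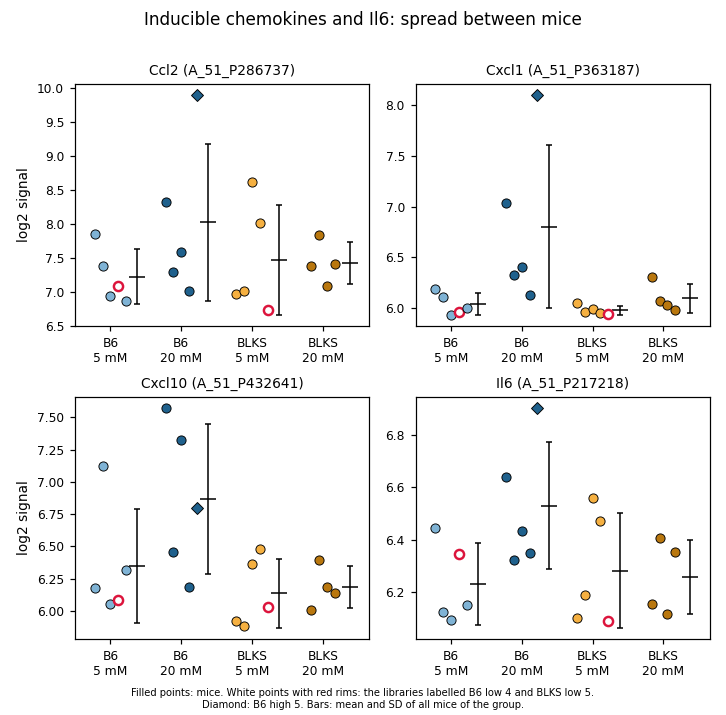
Log2 signal (vertical axes, a scale of its own per panel) of each mouse for Ccl2, Cxcl1, Cxcl10 and Il6, with the mean and SD of each group. B6 high 5, a diamond, is the highest mouse for Ccl2 (9.90), Cxcl1 (8.1) and Il6 (6.90), and white points with red rims are the libraries labelled B6 low 4 and BLKS low 5.

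Several bright or well known members showed no call in any comparison without the block. Ccl19 had group means between 8.16 ± 0.15 (SD, n = 4 mice, BLKS high) and 8.41 ± 0.21 (SD, n = 5, BLKS low) and a glucose response averaged over strains of -0.20 (adjusted p = 0.113). Ccl25, a chemokine of thymus and gut, lay between 7.56 ± 0.09 (SD, n = 4) and 7.66 ± 0.06 (SD, n = 5), and its receptor Ccr9 between 6.48 ± 0.06 and 6.54 ± 0.02 (SD, n = 5 each). Il18, an IL-1 family cytokine, gave -0.17 averaged over strains (adjusted p = 0.118) and, only with the array pair as fixed block, was called for strain in high glucose (-0.18, adjusted p = 0.0231). The 2 probes of Il6ra, the IL-6 receptor, gave -0.05 and -0.04 averaged over strains. Ccr6, the receptor of Ccl20, had means from 6.97 to 7.05, and Cxcr3, the receptor of Cxcl10, from 6.25 to 6.28. At the eosinophil receptor Ccr3, B6 high 1 (6.90) and BLKS high 1 (6.87), which shared arrays, stood above all other mice, which lay between 6.21 and 6.42.

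Without both libraries some members uncalled above were called for strain in low glucose. Cxcl14 was higher in BLKS by 0.75 (adjusted p = 0.0166), against 0.41 (adjusted p = 0.43) with all libraries, and Il17rc gave -0.22 (adjusted p = 0.0108) against -0.11 (adjusted p = 0.52). Il10rb was higher by 0.19 (adjusted p = 0.0447) and the Cxcr4 probe A_52_P585124 gave -0.25 (adjusted p = 0.0287). Cxcl4, a platelet chemokine, was higher by 0.57 (adjusted p = 0.0104), while Ccl6 gave -0.24 (adjusted p = 0.011) and Ccl27 -0.14 (adjusted p = 0.0304), and these 3 are named after their values were seen.

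Whether the strains respond differently to glucose was tested by the difference between the responses. By limma 0 members were called in either direction, against 0.0409% of all probes (0.0136% higher and 0.0273% lower in BLKS), while a single member passed an unadjusted threshold of 0.05. The count was also 0 with either block and without both libraries, where 0.058% of all probes were called. At Ccl2 the difference was -0.84 (standard error 0.65, adjusted p = 1) and at Cxcl10 it was -0.47 (standard error 0.34, adjusted p = 1).

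Cytokine and receptor genes that the name rule leaves out were measured at 44 probes for 30 genes. Of these, 4 rose and 6 fell with glucose averaged over strains (against 10.9% and 11.4% of all probes), with a median of 0.03. Lifr, the receptor of LIF that pairs with gp130, rose by 0.65 (A_52_P579352, adjusted p = 1.85e-07), Tgfb3 by 0.27 (adjusted p = 0.00859), and Csf2rb1, the common beta chain of the IL-3 receptor, fell by 0.25 (adjusted p = 0.00172). Cx3cl1, a membrane chemokine, fell by 0.22 (adjusted p = 0.032). For strain in high glucose 6 of the 44 were lower in BLKS and 0 higher (against 6.12% and 4.99%), with a median of -0.005. Among them were Tnfrsf1a, a receptor of TNF (-0.68, adjusted p = 0.00168), Csf1, the growth factor of macrophages (-0.42, adjusted p = 0.0213), and Lifr (-0.37, adjusted p = 0.00696).

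Genes that carry the signals of these receptors were measured at 80 probes for 47 genes. Averaged over strains 6 rose and 9 fell with glucose (against 10.9% and 11.4% of all probes), with a median of 0.003. Rgs16, a brake on G protein signals, rose by 0.65 (adjusted p = 0.000206), whereas Stat5b (-0.35, adjusted p = 2.35e-05), Gnai2 (-0.33, adjusted p = 9.69e-05) and Socs2 (-0.27, adjusted p = 0.00412) fell. In B6 islets 4 rose and 5 fell (against 5.43% and 4.06%), with Nfkbia, the inhibitor of NF-kB, at 0.43 (adjusted p = 0.0464, without both libraries 0.0937) and Tnfaip3, another brake on NF-kB, at 0.33 (adjusted p = 0.0473, without both 0.0501). In BLKS islets 0 rose and 9 fell (against 6.53% and 5.06%). For strain in high glucose 11 were lower in BLKS and 0 higher (against 6.12% and 4.99%), led by Arrb2, a beta-arrestin (-0.69, adjusted p = 0.0105), Rgs16 (-0.63, adjusted p = 0.0155), Nfkbia (-0.48, adjusted p = 0.0337) and Ptpn11 (-0.42, adjusted p = 0.0086).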

How the data were processed

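Islet RNA of 19 mice on 20 arrays was analysed, with groups taken from the labels. The deposited intensity values were made by the authors with Agilent Feature Extraction, version 8.1 in the submitters' processing notes and 9.5.3.1 in the file headers. Per the file headers, the dyes of an array were normalized (linear and LOWESS) and background was left in the signals. A log2 table, deposited too, was checked against the arrays and holds the log2 mean spot signal averaged over dyes (largest median difference 0.003, column medians 6.19 to 6.49).

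Processed intensities were put on the log2 scale without outlier spots (12 to 38 per array and dye), scaled with Aquantile and averaged over spots of a probe and dyes of a mouse. The filter (at least 4 mice, all their spots) used Cy5, because 83.9% of 314 negative controls passed as well above background in Cy3 and 0.318% in Cy5. No member spot was saturated, and the number of arrays limits the precision. For Il17f, the value of B6 high 5 was missing, and the fit left that mouse out for this probe.

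Under R 4.3.3 (data.table package, version 1.17.8), limma 3.58.1 fitted 4 group means and tested 6 comparisons, with Benjamini-Hochberg adjustment over 29329 probes at 0.05. Adjusted p-values are from limma throughout. Exact permutation tests of named probes were 2-sided, over 252 ways to divide 5 against 5 mice and 126 for 5 against 4, with a smallest p of 0.00794 in both. Each mouse was a separate animal, and B6 low 1, on 4 arrays, was counted once. Shared arrays pair the mice, and over the 9 pairs their deviations had correlations of 0.021 to 0.695 (median 0.482, against -0.006 over 126 other pairs), with a consensus of 0.5449 in the random block.

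Named are the probes called in any comparison (at most 25 per comparison by size), the 3 brightest kept probes per sub-family, and all kept probes of Ccl2, Cxcl1, Cxcl2, Cxcl10, Cxcl12, Cxcr4, Il1b, Il1rn, Il1r1, Il6, Il6ra, Il6st and Il18. Members and gene lists were chosen with earlier results of these data known. Marker sums add the linear signals of the brightest kept probe of each gene. All 171 members matched a gene in the RefSeq table of GRCm38.p6. The script was tested on simulated data. Alternatives were normexp (offset 50), no scaling, quantile normalization, other filters, the authors' table, Cy5 alone, the array pair as a block, the methods' linear model, the later-scanned arrays left out, the libraries labelled B6 low 4 and BLKS low 5 left out, and each mouse left out. Some items are not reported here.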

Additional observations from a re-analysis of the deposited data

Results flagged for a closer look

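In 19 of 156 groups of 4 or 5 mice (39 named probes in 4 groups), 1 mouse stood apart from the others by Dixon's test at the 95% level, where chance gives about 1 in 20. The library labelled BLKS low 5 stood apart at Ccl5 (A_51_P485312, 7.41), Cxcl16 (A_51_P108020, 7.12), Cxcr4 (A_52_P585124, 6.72), Il11ra1 (A_51_P353946, 9.93), Il17rc (A_52_P143976, 10.02) and Il1rn (6.11), and the library labelled B6 low 4 at Cxcl16 (A_51_P108020, 6.27). These are the 2 libraries that go against their strain labels.

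B6 high 5 stood apart at Cxcl2 (6.65), Cxcr4 (A_52_P585124, 6.91) and Il1rn (6.56). B6 high 1 and BLKS high 1, which shared arrays, both stood apart at Ccr3 (A_52_P661044), at 6.90 and 6.87. B6 low 1 and BLKS low 1, which also shared arrays, both stood apart at Il21r, at 6.92 and 6.90. BLKS high 1 was apart at Ccl5 (A_51_P485312, 6.86) and B6 high 1 at Il17d (8.27). The remaining mice were B6 low 2 at Cxcl10 (7.12), BLKS high 3 at Il18 (7.79) and BLKS high 4 at Il1r2 (6.57). The part of the shared arrays in these values was not tested.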

How the results depend on the processing

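None of the 1533 values of 49 single-gene results changed sign under an alternative, and 1339 kept their side of the threshold, while 127 lost it and 67 gained it. Stable signs were partly fixed in advance. Leaving out a mouse does not move a difference between groups that it is not part of, and many of these results were chosen by their call. Counts of members called for the glucose response averaged over strains (12) were 7 in the authors' log2 table, 7 with the array pair as a random replicate block and 19 with the methods' linear model, where 11.5%, 13% and 33.7% of all probes were called (22.3% without these changes). The count in B6 (7) was 4 without scaling between arrays, 3 in the authors' table and 17 with the linear model (all probes 5.47%, 4.13% and 18.9%, from 9.49%). In BLKS (2) it was 1 in the authors' table, 1 with Cy5 alone, 5 with the random block and 7 with the linear model (all probes 3.4%, 8.45%, 12% and 22.6%, from 11.6%). For strain in high glucose (7) it was 4 in the authors' table, 20 with the fixed and 22 with the random block, 23 with the linear model and 11 without both libraries (all probes 3.19%, 20.8%, 25.2%, 22.5% and 15.3%, from 11.1%). For strain in low glucose (0) it was 6 with the fixed and 12 with the random block, 9 with the linear model and 15 without both libraries (all probes 8.41%, 16.1%, 12.6% and 15.6%, from 0%). The difference between responses stayed at 0. The cause of these shifts was not tested.

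With each mouse left out in turn the counts ranged from 10 to 15 (averaged), 4 to 8 (B6), 2 to 4 (BLKS), 3 to 11 (strain in high glucose), 0 to 7 (strain in low glucose) and 0 to 0 (difference between responses). Over all probes, the shares called with glucose were 18.7% to 23.7%, 6.58% to 10.4% and 7.83% to 12.4%. For strain they were 7.12% to 13.3% and 0% to 9.16%, and for the difference between responses 0.00341% to 0.0546%. The B6 count was 4 without B6 high 3 (all probes 7.21%), and the BLKS count 4 without B6 low 3 or BLKS low 3 (all probes 11.8% each). The high-glucose strain count was 11 without B6 low 4 or without BLKS low 5, 3 without B6 high 1, and 4 without BLKS high 1, BLKS high 3 or BLKS high 4. In low glucose the strain count was 7 without B6 low 4 or without BLKS low 5 (all probes 9.16% and 8.11%). Without scaling between arrays, 1410 of all probes rose and 3797 fell with glucose averaged over strains (3200 and 3335 with scaling), while 1093 rose and 2292 fell in the authors' table. Most kept members lie near background, which limits the changes that could be seen.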
